A study of Mus musculus with 16 samples.

Results

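The genes described here carry glucose into brown adipose tissue (BAT) and through glycolysis and the pentose phosphate pathway. The list has 33 genes of 49066 gene symbols in the data. It was chosen by pathway role, not by a measured value, though with earlier results of these data known. It holds 27 genes of glucose transport and glycolysis and 6 of the pentose phosphate pathway. Their levels were taken from the transcript abundances deposited for the 16 libraries, summed per gene symbol. Of the 33 genes, 29 had a mean of at least 1 TPM and were tested in each comparison, and Slc2a3, Hk3, Aldoc and Eno2 lay below that level. TPM values are read numbers divided by transcript length and scaled to a sum of 1000000 in each library, so that levels of different genes can be compared within a library.

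BAT was taken from mice of the C57BL6/J strain that were 18 weeks old and had been on a high-fat diet (HFD) for 12 weeks. The KO mice carried the floxed Gdf15 allele (Gdf15 fl/fl) and the Ucp1 Cre transgene Tg(Ucp1-cre)1Evdr, used to delete Gdf15 selectively in thermogenic adipocytes. In mice on regular chow, the study found no reduction of Gdf15 mRNA in the stromal vascular fraction, the BAT cells other than mature adipocytes. The WT littermates were Gdf15 fl/fl without Cre, so the loss of Gdf15 and the presence of Cre cannot be told apart. Each sex had 4 WT and 4 KO libraries. The question was how the loss of GDF15, a stress-induced hormone of the TGFβ superfamily, in thermogenic adipocytes changed the tissue of diet-fed males and females.

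Glucose enters adipocytes through GLUT1 and through GLUT4, which insulin brings to the cell surface. Hexokinase traps it as hexose phosphate, which can run down glycolysis to pyruvate or pass through the pentose phosphate pathway, whose oxidative arm makes NADPH for fatty acid synthesis and whose nonoxidative arm returns the sugars to glycolysis. Brown fat takes up much glucose when it is active and uses it for fuel, for glycerol and for new fatty acids, and most steps are encoded by several isozymes with their own tissues and regulation.

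The targeted gene was low in these libraries. Gdf15 (ENSMUSG00000038508) was at 0.368, 0.69, 1.55 and 3.81 TPM in the 4 male WT and at 0.0915, 0.0801, 0.255 and 0.272 TPM in the 4 male KO libraries, which lay below the WT values. In females it was at 0.0622, 0.311, 0.17 and 0.29 TPM in WT and at 0, 0, 0.0794 and 0 TPM in KO, and the lowest WT library lay below the highest KO library. Xist and Ddx3y matched the labelled sex in the 16 libraries, and Ucp1, which marks brown adipocytes, was between 2353 and 4423 TPM. The number of reads behind a TPM value is unknown. Between 34.5 and 59.8% of each library's TPM came from the mitochondrial genome.

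Several libraries stood apart in ways that touch these genes. Acta1 and Ckm, which mark skeletal muscle, were above 200 TPM in 6 libraries: male WT 1 and 2, male KO 1 and 3, female WT 2 and female KO 3. Female KO 1 and female KO 4 had the lowest summed TPM of the 33 genes, 6327 and 5471, against 7343 to 17568 in the other 14 libraries. In the same 2 libraries the summed TPM of 5 endothelial markers (Pecam1, Cdh5, Kdr, Tek and Emcn) was 342 and 275, against 118 to 226 in the other 14. Transcripts with a retained intron took 9.30 and 8.45% of the TPM of nuclear coding genes in these 2 libraries and 6.69 to 8.27% in the other 14. In female WT 4, 1 unmatched transcript took 16.5% of the TPM. In bulk tissue, fewer cells of a type and less RNA per cell cannot be told apart.

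Levels spanned more than 3 orders of magnitude. Aldoa, the main aldolase of most tissues, had the highest mean over the 16 libraries, 2059 TPM, followed by Gapdh at 1853, Eno1 at 1443, Tkt at 1359 and Pkm at 873 TPM. The lowest was Hk3, a hexokinase of blood cells, at 0.271 TPM. Tpi1, which encodes the triose phosphate isomerase between aldolase and Gapdh, was listed at only 9.57 TPM. The 2387 transcript identifiers that matched no gene were not assigned, so the Tpi1 value may miss part of the gene's transcripts.

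**Figure D1:**
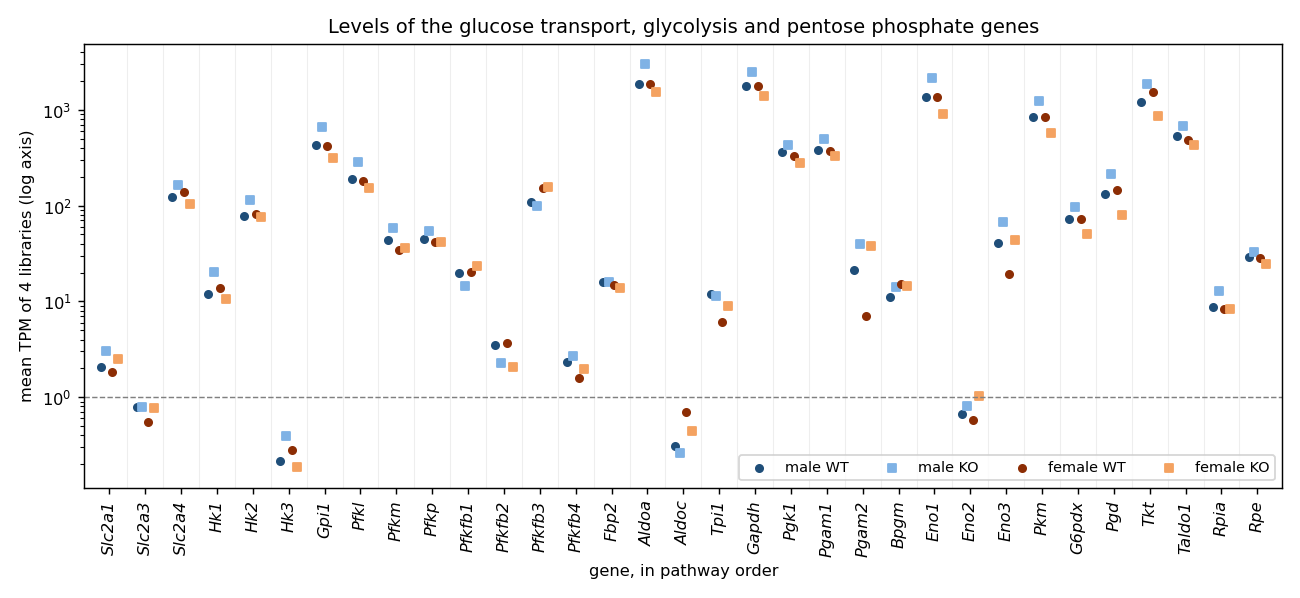
Mean TPM of each of the 33 genes in the 4 groups (4 libraries each), on a log axis and in pathway order, with 1 TPM marked by a dashed line. Aldoa, Gapdh, Eno1, Tkt and Pkm stand at the top, Tpi1 lies far below its neighbours, and Slc2a3, Hk3, Aldoc and Eno2 lie near or below the line.

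In males, 26 of the 29 tested genes had a higher mean in KO than in WT, with a median log2 difference of 0.45. The median over 12176 genes tested was 0.16 (79.9% positive), and it became 0.01 when the libraries were rescaled by median-of-ratios factors, where the median of the 29 genes was 0.30. In that scaling 5 of the 29 were higher with an unadjusted p under 0.05, against 8.56% of all genes, and 3 were lower, against 7.08%. None of the 29 passed the adjusted threshold of 0.05 in limma, against 0.00821% of all genes. Before adjustment, 12 of the 29 had p under 0.05 with a higher KO mean, against 17.7% of all genes, and 1 was lower, against 1.07%. The 12 became 5 without male KO 2 (9.37% of all genes) and 6 without male WT 1 (10.4%) or male KO 3 (10.5%), and without the mitochondrial genome they were 7 (11.7%). In 3 genes (Hk1, Aldoa and Pgk1) the 4 KO libraries lay above the 4 WT libraries, against 9.55% of all genes, and in 1 (Pfkfb2) they lay below, against 0.673%.

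In females, 22 of the 29 had a lower mean in KO than in WT, with a median log2 difference of -0.18, while the median over 12141 genes was 0.10. None passed the adjusted threshold, and among all genes 0% did. Before adjustment, 9 of the 29 had p under 0.05 with a lower KO mean, against 5.45% of all genes, and 0 were higher, against 11.6%. The 9 became 3 without female KO 4 (3.5% of all genes), 4 without female WT 1 (4.17%) or female WT 2 (4.6%), 5 without female KO 1 (3.13%), 4 with the library prefix as a covariate (4.7%) and 5 without the libraries with high Acta1 (4.57%). With the mitochondrial genome left out and the rest rescaled, the median of all genes turned to -0.04 and that of the glucose genes to -0.33, with 11 lower (9.89% of all genes) and 1 higher (7.5%). In 6 genes (Hk1, Pfkl, Pfkfb2, Pkm, G6pdx and Pgd) the 4 KO libraries lay below the 4 WT libraries, against 3.19% of all genes, and in 0 above, against 4.89%. Without female KO 1 and KO 4, the libraries with high endothelial markers, 2 of the 29 (Hk1 and Pfkfb2) were lower with an unadjusted p under 0.05 and the median was -0.08, while the share of all genes was then 1.76% lower and 2.05% higher. The part of endothelial or intron-retaining RNA in the female result was not tested.

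The test of the difference between the sexes, the male minus the female KO effect, gave a median of 0.52 for the 29 genes and of 0.06 for 12210 genes. It was positive in 23 of the 29, and no gene of the data passed the adjusted threshold (0%). Before adjustment, 15 of the 29 were positive with p under 0.05, against 11.7% of all genes, and 1 was negative, against 2.51%. The smallest adjusted p among the 29 was 0.216, for Hk1. Without female KO 1 and KO 4 the median was 0.33 and 10 of the 29 were positive at an unadjusted p under 0.05, against 5.53% of all genes in that fit. Averaged over the sexes, the KO effects of the 29 genes had a median of 0.08, and 1 gene, Pfkfb2, passed the adjusted threshold, against 2.93% of all genes. Before adjustment 1 was higher (Slc2a1) and 1 lower (Pfkfb2) with p under 0.05, against 21.4 and 2.58% of all genes. Under the median-of-ratios factors that median was -0.05, and 11 of the 29 were positive in place of 19.

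**Figure D2:**
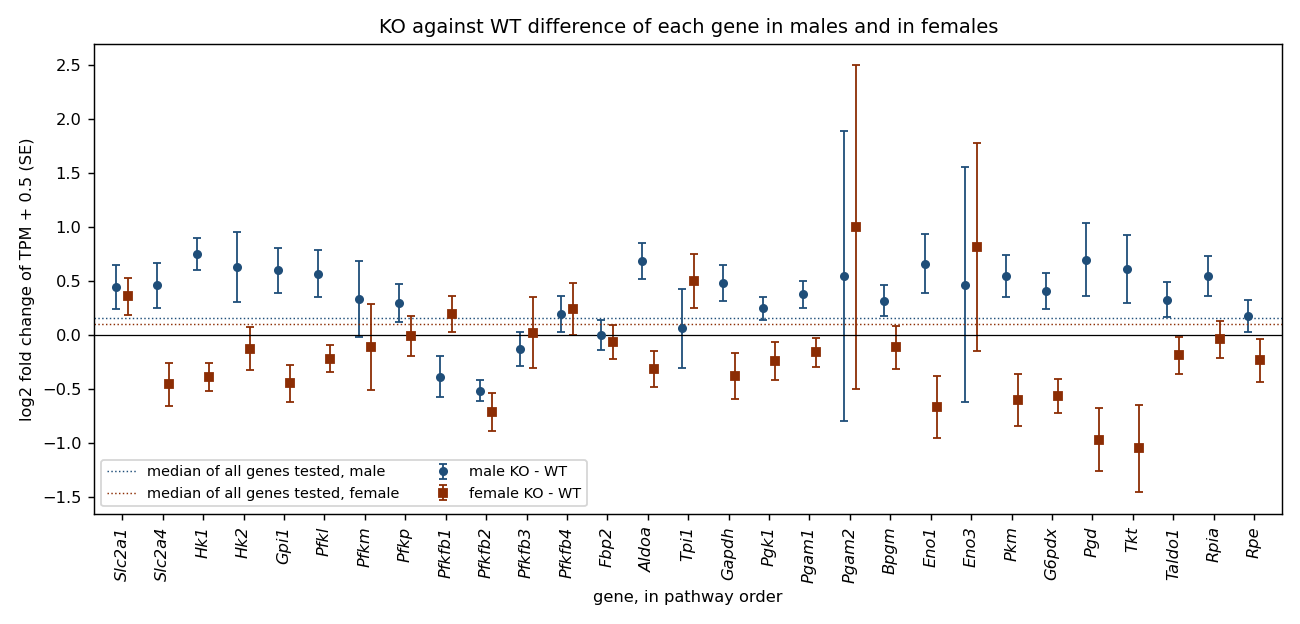
Difference between KO and WT of each tested gene on the log2(TPM + 0.5) scale, with its standard error, in males (circles) and females (squares), 4 against 4 libraries each. Most genes from Slc2a4 to Rpe lie above 0 in males and below 0 in females, Pfkfb2 lies below 0 in both, Slc2a1 above 0 in both, and Pgam2 and Eno3 have the widest errors.

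Among the glucose transporters, Slc2a4, which encodes the insulin-responsive GLUT4, made up most of the TPM. It was at 87.9, 104, 168 and 129 TPM in male WT, 143, 194, 186 and 141 in male KO, 131, 146, 131 and 152 in female WT and 72.002, 136, 117 and 93.9 in female KO. Its KO and WT values overlapped in both sexes. The male difference was 0.46 on the log2 scale (SE 0.21, adjusted p = 0.269 by limma), the female difference -0.45 (SE 0.20, adjusted p = 0.292) and the difference between them 0.92 (adjusted p = 0.221).

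Slc2a1, which encodes the basal transporter GLUT1, was near 2 TPM and was higher on average in KO of both sexes. Its values were 1.53, 2.41, 1.80 and 2.60 TPM in male WT, 3.65, 1.95, 3.25 and 3.32 in male KO, 2.16, 1.66, 1.73 and 1.72 in female WT and 3.20, 1.89, 2.38 and 2.53 in female KO. Male KO 2 and female KO 2 were the low values that overlapped WT. The mean effect over the sexes was 1.32-fold (log2 0.40, SE 0.13) and missed the threshold (adjusted p = 0.0913 by limma). Of the Slc2a1 TPM, 60.7% stood on a transcript annotated for nonsense-mediated decay (Slc2a1-204). Slc2a3, the high-affinity GLUT3 of neurons and blood cells, ranged from 0.275 to 1.12 TPM over the 16 libraries and its groups overlapped in both sexes (exact permutation p = 0.914 in males and 0.171 in females).

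Hk1, the widely expressed hexokinase that sits on the mitochondrial outer membrane, separated the genotypes in opposite directions in the sexes. It was at 10.1, 10.54, 12.5 and 14.3 TPM in male WT and at 15.9, 20.97, 21.2 and 23.3 TPM in male KO, so the 4 KO values were the higher ones. In females it was at 13.2, 14.1, 13.8 and 14.6 TPM in WT and at 12.2, 11.9, 9.37 and 9.02 TPM in KO, so the 4 KO values were the lower ones. Means were 11.9 ± 1.97 and 20.3 ± 3.15 TPM in male WT and KO, and 13.9 ± 0.59 and 10.6 ± 1.68 TPM in female WT and KO (SD, n = 4).

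The male difference of Hk1 was 1.69-fold (log2 0.75, SE 0.15, adjusted p = 0.143 by limma). The female KO level was 0.767 times the WT level on the log2(TPM + 0.5) scale (log2 -0.38, SE 0.13, adjusted p = 0.237). The difference between the sexes was 1.14 (SE 0.20, adjusted p = 0.216), the smallest adjusted p of the 29 genes in that test. Hk1 passed the threshold in 2 other settings: the fit of the 16 libraries together for the male difference (adjusted p = 0.0385) and the fit without male KO 1 for the difference between the sexes (adjusted p = 0.0408). Without female KO 1 and KO 4 the female difference was -0.38.

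Hk2, the insulin-regulated hexokinase of muscle and fat, supplied most of the hexokinase TPM. As a gene it was at 41.4, 63.5, 123 and 84.3 TPM in male WT, 91.98, 155, 127 and 87.7 in male KO, 72.4, 89.1, 67.7 and 96.3 in female WT and 53.7, 73.3, 93.9 and 80.96 in female KO, with overlap in both sexes. The male difference was 0.63 (SE 0.32, adjusted p = 0.314) and the female difference -0.12 (SE 0.20, adjusted p = 0.749). The gene total hid a split between its transcripts in females. The coding transcript Hk2-201 was at 52.8, 63.2, 55.2 and 73.3 TPM in female WT and 17.6, 46.6, 50.5 and 32.7 in female KO, while Hk2-202, annotated as a processed transcript without a coding frame, was at 19.2, 25.7, 12.4 and 20.9 TPM in WT and 36.03, 26.5, 43.4 and 48.2 in KO.

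The female KO libraries therefore held the 4 lowest Hk2-201 and the 4 highest Hk2-202 values of the females. Hk2-201 supplied 75.4 ± 4.63% of the gene's TPM in female WT and 47.7 ± 13.7% in female KO (SD, n = 4, exact permutation p = 0.0286, the smallest that 4 against 4 allows, and adjusted p = 0.404 over 46 transcript shares). In males the share was 65.5 ± 10.9% in WT and 77.7 ± 7.46% in KO (exact permutation p = 0.114). Counted on coding transcripts only, the Hk2 difference was 0.88 in males, -0.83 in females and 1.71 between the sexes (adjusted p = 0.159 by limma). Hk3, at 0.121 to 0.62 TPM, overlapped between the genotypes in both sexes (exact permutation p = 0.229 in males and 0.0571 in females).

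**Figure D3:**
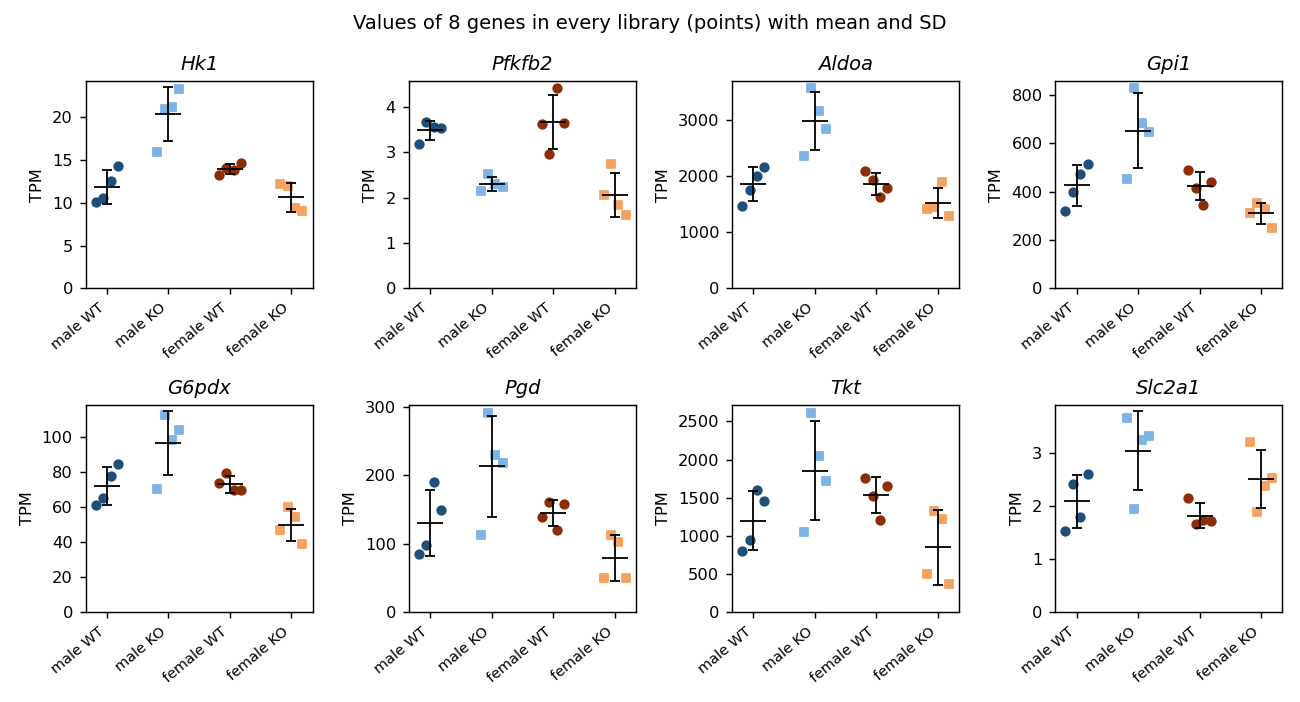
TPM of 8 genes in each of the 16 libraries (points), with the mean and SD of the 4 libraries of each group and axes from 0. Hk1 values of KO lie above WT in males and below WT in females, Pfkfb2 values of KO lie below WT in both sexes, and for Pgd and Tkt female KO 1 and KO 4 lie far below the other female libraries.

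Gpi1, the isomerase that turns the hexose phosphate of hexokinase into the substrate of phosphofructokinase, was at 321, 400.5, 472 and 514 TPM in male WT and 453, 829.6, 684 and 646 in male KO. The female WT libraries held 489.5, 417, 347 and 441 TPM and the female KO libraries 313, 354, 328 and 250.03 TPM. The lowest male KO library and the highest female KO library overlapped WT. The log2 difference was 0.60 (SE 0.21, adjusted p = 0.215) in males, -0.44 (SE 0.17, adjusted p = 0.253) in females and 1.05 (adjusted p = 0.216) between the sexes. Only 35.1% of the Gpi1 TPM stood on coding transcripts, and the coding transcript Gpi1-201 was at 162, 158, 124 and 146 TPM in female WT and 69.6, 119.5, 110.5 and 62.8 in female KO, with no overlap.

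The committed step of glycolysis, phosphofructokinase, was carried mostly by Pfkl, the liver-type subunit. Pfkl was at 148, 164, 229 and 224 TPM in male WT and 189.95, 337, 297 and 322 in male KO, with overlap only through male KO 1. It was at 183, 168, 167 and 199 TPM in female WT and 149.8, 161, 157 and 147 in female KO, and the female KO values were the lower ones. The differences were 0.57 (SE 0.22, adjusted p = 0.232) in males, -0.22 (SE 0.12, adjusted p = 0.379) in females and 0.79 (adjusted p = 0.218) between them. Pfkp, the platelet-type subunit, ranged from 32.9 to 64.2 TPM, with differences of 0.30 in males and -0.01 in females (adjusted p = 0.36 and 0.986).

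Pfkfb2 was the gene of the list with a difference that passed the adjusted threshold. It encodes a bifunctional enzyme, best known from heart, whose kinase side makes the sugar bisphosphate that activates phosphofructokinase and whose phosphatase side removes it. It was at 3.18, 3.67, 3.55 and 3.54 TPM in male WT and 2.14, 2.52, 2.30 and 2.24 TPM in male KO. Female values were 3.63, 2.96, 4.43 and 3.65 TPM in WT and 2.06, 2.73, 1.83 and 1.61 TPM in KO. The KO libraries of each sex lay below the WT libraries of that sex.

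Over both sexes Pfkfb2 fell in KO to 0.655 times the WT level (log2 -0.61, SE 0.10, adjusted p = 0.0112 by limma, n = 8 WT and 8 KO libraries). Within each sex the difference was -0.51 in males (SE 0.10, adjusted p = 0.138) and -0.71 in females (SE 0.17, adjusted p = 0.231), and the difference between the sexes was 0.20 (adjusted p = 0.654). The call was lost when the 6 libraries with high Acta1 were left out (log2 -0.63, adjusted p = 0.116), when female KO 1 and KO 4 were left out (-0.55, adjusted p = 0.0814) and with the library prefix as a covariate (-0.60, adjusted p = 0.0598). The study named Pfkfb2 from a heatmap of the same female libraries, so the direction is not independent of that choice. At 1.61 to 4.43 TPM it is among the low genes of the list, and 55.4% of its TPM stood on coding transcripts. On coding transcripts alone the difference was -0.37 in males and -0.66 in females (adjusted p = 0.252 and 0.145 by limma). Over both sexes it was then -0.51 (adjusted p = 0.0236 by limma).

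The promoter windows of Pfkfb2 and Hk1 are printed because these genes separated KO from WT in both sexes. They run from 250 bases before to 50 bases after a RefSeq start (build GRCm38.p6), 5′ to 3′ on the gene's own strand. The Pfkfb2 window, chr1:130715772-130716071 on the minus strand, holds the E box motif CACGTG, beginning 22 bases before the start. The Hk1 window, chr10:62340372-62340671 on the minus strand, holds ACGTG, the core of the hypoxia response element, at 2 places. Capitals mark these letters.
Pfkfb2 promoter: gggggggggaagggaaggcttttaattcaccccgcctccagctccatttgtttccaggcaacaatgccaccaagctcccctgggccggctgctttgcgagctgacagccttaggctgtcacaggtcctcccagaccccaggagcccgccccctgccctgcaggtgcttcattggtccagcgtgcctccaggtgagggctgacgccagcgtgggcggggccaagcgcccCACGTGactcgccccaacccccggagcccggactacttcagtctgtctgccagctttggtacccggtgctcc
Hk1 promoter: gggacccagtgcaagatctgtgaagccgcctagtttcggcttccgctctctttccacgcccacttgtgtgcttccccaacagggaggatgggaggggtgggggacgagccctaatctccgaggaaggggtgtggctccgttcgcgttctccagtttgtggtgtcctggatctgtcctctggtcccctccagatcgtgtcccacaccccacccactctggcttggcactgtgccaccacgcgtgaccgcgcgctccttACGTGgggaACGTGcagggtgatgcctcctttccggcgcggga
RefSeq windows were found for 31 of the 33 genes, 48 windows in all, and both strands were searched. CACGTG was in 4 of the 48 windows (8.33%), those of Pfkfb2, Pfkfb3, Pfkm and Fbp2. It was in 7.15% of the 32851 windows searched, which do not cover every chromosome. ACGTG, which is part of CACGTG, was in 19 of the 48 (39.6%) and in 19.6% of the windows searched. A gene can have several windows, and these 19 belonged to 15 of the 31 genes. These matches are letters in a window and not measured sites.

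The other bifunctional enzymes overlapped between the genotypes in both sexes. Pfkfb3, the form with the strongest kinase side, supplied 80.7 to 84.7% of the family's TPM on average in the 4 groups. It was at 80.9, 116, 99.6 and 139.6 TPM in male WT, 99.8, 97.6, 91.4 and 104 in male KO, 207, 81.9, 143 and 185 in female WT and 122, 145, 116 and 236 in female KO. Its values overlapped in both sexes, with differences of -0.13 and 0.03 (adjusted p = 0.676 and 0.974 by limma).

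Pfkfb1, first known from liver and muscle, was at 20.1, 27.04, 16.003 and 15.04 TPM in male WT and 17.1, 13.3, 15.8 and 12.3 in male KO. In females it was at 22.4, 18.7, 22.9 and 17.3 TPM in WT and 23.7, 27.7, 17.9 and 24.8 in KO. It was the gene of the list with a negative difference between the sexes at an unadjusted p under 0.05 (-0.58, SE 0.26, adjusted p = 0.328), opposite to the other 15. Pfkfb4 ranged from 1.05 to 3.18 TPM with differences of 0.20 in males and 0.24 in females. Fbp2, the muscle fructose bisphosphatase that opposes phosphofructokinase, ranged from 10.52 to 18.8 TPM and differed by 0.00 and -0.06 (adjusted p = 0.995 and 0.845).

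Aldoa, which splits the hexose into trioses, was the most abundant gene of the list and one of those whose male KO values were the higher ones. It was at 1477, 1762, 2015 and 2172 TPM in male WT and 2366, 3588, 3166 and 2851 in male KO. The female WT libraries held 2102, 1941, 1633 and 1797 TPM and the female KO libraries 1415, 1459, 1905 and 1292 TPM, and female KO 3 overlapped WT. The male difference was 1.61-fold (log2 0.69, SE 0.16, adjusted p = 0.164 by limma). The female difference was -0.31 (adjusted p = 0.354) and the difference between the sexes 0.996 (SE 0.23, adjusted p = 0.216). Aldoc, the brain form, was at 0.0692 to 0.912 TPM and its groups overlapped in both sexes (exact permutation p = 0.857 in males and 0.114 in females).

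Gapdh, which takes the first electrons of glycolysis and often serves as a reference gene, was at 1345, 1700.00, 1991 and 2037 TPM in male WT and 2031, 3010.2, 2518 and 2311 in male KO. Female values were 2060.1, 1763, 1524 and 1755 TPM in WT and 1321, 1575, 1771 and 938 TPM in KO. Its log2 differences were 0.48 in males and -0.37 in females (adjusted p = 0.215 and 0.377), and 0.86 between the sexes (adjusted p = 0.218).

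Pgk1, the first step of glycolysis to make ATP, was at 316, 373, 369 and 392 TPM in male WT and 406, 476, 419 and 420.3 in male KO, with no overlap. In females it was at 375, 328, 331 and 269.7 TPM in WT and 248, 337, 299 and 227 in KO, with overlap. The differences were small beside those of Aldoa, 0.25 in males (SE 0.10, adjusted p = 0.246) and -0.24 in females (SE 0.17, adjusted p = 0.474). Its named copy Pgk1-rs7 was at a mean of 1.76 TPM, 0.503% of Pgk1.

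Pgam1, the non-muscle phosphoglycerate mutase, was at 322, 372, 411 and 432 TPM in male WT and 431, 561, 488 and 517 in male KO, where the lowest KO value lay just under the highest WT value. The female WT libraries held 396, 359, 378 and 339.8 TPM and the female KO libraries 323, 384, 311 and 307 TPM. The differences were 0.38 and -0.16 (adjusted p = 0.21 and 0.534). Tpi1, with the limit given above, ranged from 4.96 to 18.2 TPM and differed by 0.07 in males and 0.50 in females (adjusted p = 0.928 and 0.327).

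Eno1, the enolase of most tissues, was at 923, 1080.5, 1747 and 1671 TPM in male WT and 1332, 2782, 2392 and 2077 in male KO. Female values were 1494, 1437, 1179 and 1323 TPM in WT and 666, 1278, 1181 and 525 TPM in KO, where KO 1 and KO 4 were far below the other female libraries. The differences were 0.67 (SE 0.28, adjusted p = 0.251) in males, -0.67 (SE 0.29, adjusted p = 0.284) in females and 1.33 (adjusted p = 0.218) between them. The female difference without these 2 libraries was -0.14. Eno2, the neuronal enolase, was below the minimum: it was at 0.56, 0.481, 0.384 and 0.864 TPM in female WT and 1.02, 1.09, 0.977 and 0.982 in female KO, with no overlap (exact permutation p = 0.0286, the smallest possible), and overlapped in males (exact permutation p = 0.514). Only 46.4% of the Eno2 TPM stood on coding transcripts.

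Pgam2, Eno3 and Pfkm are the mutase, enolase and phosphofructokinase of skeletal muscle, and their levels moved with the muscle markers. Pgam2 was at 32.7, 44.8, 4.90 and 2.06 TPM in male WT, 101, 10.1, 47.6 and 1.35 in male KO, 1.08, 23.8, 2.06 and 0.925 in female WT and 1.53, 0.515, 143 and 7.11 in female KO. Eno3 was at 61.1, 81.3, 13.2 and 7.17 TPM in male WT, 161, 20.7, 82.9 and 6.30 in male KO, 10.1, 52.1, 10.52 and 3.89 in female WT and 9.89, 7.52, 137 and 22.3 in female KO. For each of these genes, and for Pfkm, the 6 libraries with the highest values were the 6 with Acta1 above 200 TPM. Acta1 was at 308, 397, 63.3 and 4.43 TPM in male WT, 1237, 108, 696 and 2.59 in male KO, 0.207, 336, 16.7 and 0.277 in female WT and 2.32, 0.647, 1128 and 106 in female KO.

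The 16 muscle markers had higher means in KO in both sexes, 16 of 16 each, with medians of 0.49 in males and 1.17 in females, and 0 passed the adjusted threshold (0 also at an unadjusted p under 0.05 in limma). The KO differences of these 3 genes were smaller than or close to their errors. For Pgam2 they were 0.55 (SE 1.34) in males and 1.001 (SE 1.499) in females, with adjusted p = 0.831 and 0.723 by limma. For Eno3 they were 0.47 (SE 1.09) and 0.82 (SE 0.97). Pfkm, at 47.7, 59.4, 31.6 and 35.3 TPM in male WT, 95.9, 41.7, 67.4 and 30.4 in male KO, 35.3, 42.9, 35.3 and 24.04 in female WT and 18.01, 34.3, 71.6 and 21.1 in female KO, differed by 0.34 (SE 0.35) and -0.11 (SE 0.40). In the 10 libraries with less Acta1, Pgam2 did not exceed 10.1 TPM and Eno3 did not exceed 22.3 TPM, while Pfkm was still at 18.01 to 41.7 TPM. Aldoa, which is also a muscle gene, behaved differently: 2 of its 6 highest libraries had Acta1 above 200 TPM. Within female KO, though, the library with Acta1 above 200 TPM, KO 3, had the highest Aldoa value. With the mean of Acta1 and Ckm as a covariate, the Aldoa difference in males was 0.71 and in females -0.33. Without the 6 libraries with high Acta1 it was 0.61 in males and -0.40 in females. The part of muscle RNA in the Aldoa values was not tested.

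**Figure D4:**
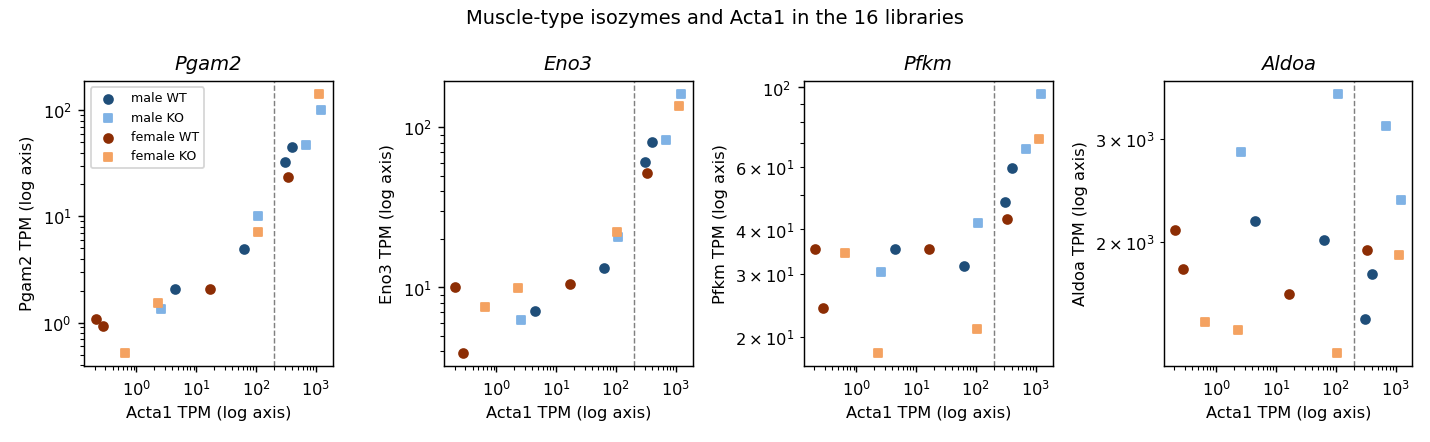
TPM of Pgam2, Eno3, Pfkm and Aldoa against Acta1 in the 16 libraries, both on log axes, with 200 TPM of Acta1 marked by a dashed line. Pgam2 spans 0.515 to 143 TPM, Pgam2, Eno3 and Pfkm are higher right of the line than left of it in each library, and the 6 libraries right of the line hold 2 of the 6 highest Aldoa values.

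Pkm encodes the pyruvate kinase of tissues other than liver and red cells, and its transcripts take either of a pair of exons. The M1 exon gives the constitutively active enzyme of muscle and brain, and the M2 exon gives the enzyme that is switched by sugar phosphates and growth signals. Both exons are 167 bases long and lie on the plus strand, M1 at chr9:59675029-59675195 and M2 at chr9:59675568-59675734 (GENCODE mouse release 21, GRCm38). They are printed because the M1 transcript separated female KO from WT and the M2 transcript did not. They share 103 of 167 positions (61.7%), and capitals mark the positions that differ.
M1 exon: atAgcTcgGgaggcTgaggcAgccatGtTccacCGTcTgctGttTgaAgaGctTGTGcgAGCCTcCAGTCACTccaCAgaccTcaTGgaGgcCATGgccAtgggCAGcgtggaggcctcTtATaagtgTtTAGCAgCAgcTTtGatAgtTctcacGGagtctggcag
M2 exon: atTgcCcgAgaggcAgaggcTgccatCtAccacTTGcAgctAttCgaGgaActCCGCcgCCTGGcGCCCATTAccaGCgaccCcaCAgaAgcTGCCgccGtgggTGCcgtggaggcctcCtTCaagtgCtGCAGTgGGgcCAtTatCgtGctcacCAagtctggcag
As a gene, Pkm was at 638, 752, 1017 and 981 TPM in male WT and 905, 1450.2, 1315 and 1278 in male KO. In females it was at 889, 820.3, 829 and 792 TPM in WT and 475, 779, 689 and 358 in KO, and the 4 KO values were the lower ones. The differences were 0.55 (SE 0.20, adjusted p = 0.219) in males, -0.60 (SE 0.24, adjusted p = 0.268) in females and 1.15 (adjusted p = 0.216) between the sexes. Without female KO 1 and KO 4 the female difference was -0.18.

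The M2 transcript (Pkm-201) was the more abundant in each library, and the M1 transcript (Pkm-202) took 18.1 to 45.0% of their sum. In males M1 was at 206, 186, 370.0 and 345 TPM in WT and at 298, 574, 538 and 518 TPM in KO. In females it was at 252, 310, 282 and 251 TPM in WT and at 80.9, 225, 224 and 68.8 TPM in KO, with the 4 KO values the lower ones. M2 was at 544, 430, 461 and 448 TPM in female WT and at 367, 487, 419 and 259 TPM in female KO, with overlap. The M1 share was 35.9 ± 6.15% in male WT and 42.2 ± 4.34% in male KO (SD, n = 4, exact permutation p = 0.143). It was 36.8 ± 4.26% in female WT and 26.4 ± 8.11% in female KO (exact permutation p = 0.0571). Female KO 1 and KO 4 had the lowest shares, 18.1 and 21.0%, while KO 2 and KO 3, at 31.6 and 34.9%, lay near or within the WT range. Shares between transcripts that differ by exons of this kind depend on how the reads were assigned.

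**Figure D5:**
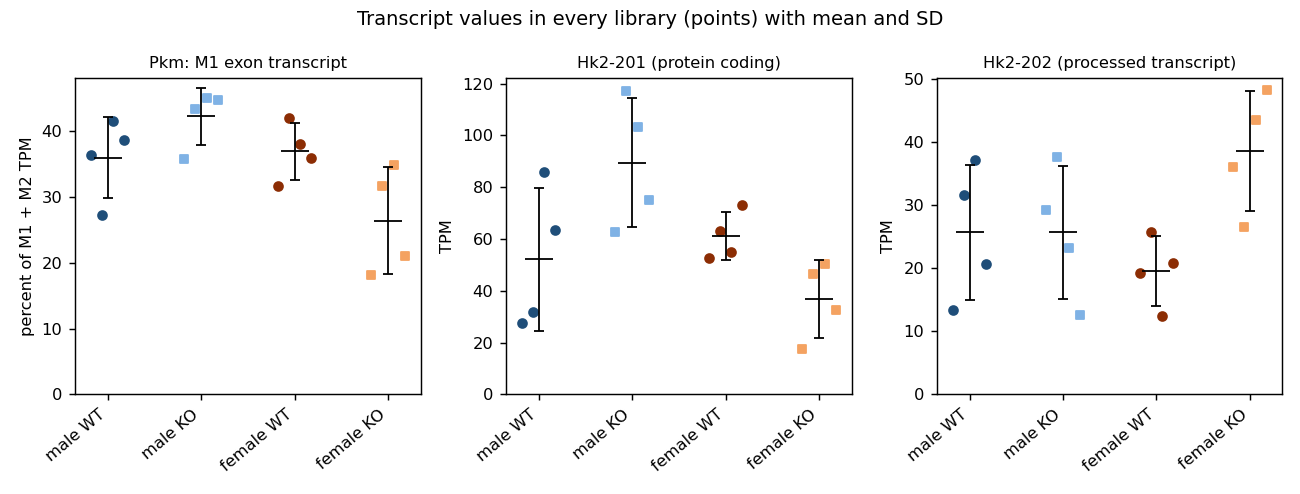
Share of the M1 exon transcript in the Pkm TPM of both exon types, and TPM of the coding transcript Hk2-201 and the processed transcript Hk2-202, in each of the 16 libraries (points) with the mean and SD of each group and axes from 0. The female KO libraries hold the lowest M1 shares (18.1 and 21.0%), the Hk2-201 values of female KO lie below those of female WT, and the Hk2-202 values lie above them.

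In the oxidative arm of the pentose phosphate pathway, both dehydrogenases separated the genotypes in females. G6pdx, the entry enzyme, was at 73.6, 79.6, 69.5 and 69.6 TPM in female WT and 47.04, 60.1, 54.1 and 38.9 in female KO. Pgd, the second NADPH-making dehydrogenase, was at 139.7, 162, 120.5 and 159 TPM in female WT and 50.3, 113, 103 and 49.9 in female KO. In both genes the 4 KO values were the lower ones, and for Pgd KO 1 and KO 4 were at less than the KO 2 and KO 3 values by a wide margin. The female KO level was 0.679 times the WT level for G6pdx (log2 -0.56, SE 0.16, adjusted p = 0.231) and 0.511 times for Pgd (log2 -0.97, SE 0.29, adjusted p = 0.231).

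In males the same genes lay the other way. G6pdx was at 61.1, 64.97, 77.7 and 84.4 TPM in male WT and 70.5, 113, 98.4 and 104 in male KO, and Pgd was at 84.8, 97.8, 191 and 149 TPM in male WT and 113, 291, 231 and 218 in male KO. Male KO 1 was the low value that overlapped WT in both. The male differences were 0.41 (SE 0.17, adjusted p = 0.248) for G6pdx and 0.70 (SE 0.34, adjusted p = 0.29) for Pgd. The difference between the sexes was 0.97 (SE 0.23, adjusted p = 0.216) for G6pdx and 1.67 (SE 0.47, adjusted p = 0.216) for Pgd, the largest of the 29 genes. Leaving out female KO 1 and KO 4 gave female differences of -0.35 for G6pdx and -0.42 for Pgd.

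Tkt, the transketolase that returns pentose carbon to glycolysis, was at 795, 949, 1596 and 1455 TPM in male WT and 1048, 2606, 2044 and 1715 in male KO. The female WT libraries held 1752, 1521, 1204 and 1657 TPM and the female KO libraries 494, 1330.4, 1214 and 366 TPM, where KO 1 and KO 4 were low and KO 2 and KO 3 were within the WT range. The differences were 0.61 (SE 0.31, adjusted p = 0.311) in males, -1.05 (SE 0.41, adjusted p = 0.261) in females and 1.66 (adjusted p = 0.224) between them. The female difference was -0.26 without these 2 libraries. Coding transcripts held 28.7% of the Tkt TPM and the processed transcript Tkt-209 held 59.5%, and on coding transcripts alone the female difference was -1.22.

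Taldo1, the transaldolase, was at 415, 531, 579.7 and 616 TPM in male WT, 532, 804, 702 and 657 in male KO, 563, 481, 489.8 and 405 in female WT and 394, 506, 460.3 and 351 in female KO. Its differences were 0.33 in males and -0.18 in females (adjusted p = 0.301 and 0.553), and on coding transcripts alone they were 0.49 and -0.61. Rpia, the isomerase of the pentose phosphates, was at 6.62, 9.91, 11.7 and 6.81 TPM in male WT and 11.8, 13.95, 13.5 and 11.6 in male KO, where male KO 4 was just under the highest WT value. It was at 7.86, 9.69, 8.75 and 7.33 TPM in female WT and 6.99, 10.6, 9.11 and 6.46 in female KO. Rpia differed by 0.55 (SE 0.18, adjusted p = 0.207) in males and -0.04 (SE 0.17, adjusted p = 0.919) in females. Rpe, the epimerase, ranged from 16.7 to 37.2 TPM with differences of 0.18 and -0.23.

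The leading isozyme's share of its step was compared for 7 steps in each sex: Slc2a4 among transporters, Hk2 among hexokinases, Pfkl among phosphofructokinases, Pfkfb3 among the bifunctional enzymes, and Aldoa, Pgam1 and Eno1 among aldolases, mutases and enolases. The smallest p of the 14 exact permutation tests was 0.0571, for Slc2a4 in females, whose share was 98.3 ± 0.288% in WT and 96.7 ± 1.33% in KO (SD, n = 4, adjusted p = 0.800). The Hk2 share was 85.4 ± 4.21% in male WT, 84.3 ± 3.99% in male KO, 85.0 ± 1.78% in female WT and 86.9 ± 4.39% in female KO, although Hk1 itself separated the genotypes. The Aldoa and Slc2a4 shares were so near to 100% in each group that they had little room to differ, and the Pgam1 and Eno1 shares contain the muscle forms Pgam2 and Eno3. The Pgam1 share ran from 68.6% in female KO 3, a library with high Acta1, to 99.9%. Shares do not depend on how libraries are scaled.

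Leading transcript shares were compared for the 23 genes with at least 2 transcripts at 1 TPM or more. In females 3 of 23 reached the smallest exact permutation p of 0.0286: Hk2-201, Gpi1-207 and Eno1-202. Gpi1-207, annotated for nonsense-mediated decay, took 39.1 ± 4.04% in WT and 54.1 ± 9.83% in KO. Eno1-202, the coding transcript, took 94.7 ± 0.214% in WT and 88.2 ± 2.78% in KO. In males 0 of 23 reached it, and the smallest adjusted p over the 46 shares was 0.404. Leaving Tkt aside, transcripts annotated as not coding held 18.9 and 15.9% of the TPM of these genes in female KO 1 and KO 4 and 6.21 to 12.5% in the other 14 libraries. With Tkt included the shares were 23.6 and 19.97%, against 13.9 to 19.79% in the other 14, with female WT 4 the highest of these. Over all nuclear coding genes the shares were 21.8 and 20.1%, and female WT 4 was higher at 23.3%.

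Among WT mice, the median male minus female difference of these genes was 0.00 on the log2 scale, against 0.05 for 12042 genes, and none of the 29 passed the adjusted threshold, against 0.0664% of all genes. Before adjustment, 0 of the 29 were higher in males with p under 0.05, against 2.17% of all genes, and 1 was lower, against 1.25%. That gene was Bpgm, the mutase that makes the haemoglobin-binding bisphosphoglycerate of red cells. Bpgm was at 9.91, 11.5, 11.2 and 11.6 TPM in male WT and 12.5, 18.1, 16.8 and 13.7 in female WT (log2 -0.44, SE 0.14, adjusted p = 1). It was at 17.7, 12.8, 14.8 and 11.1 TPM in male KO and 11.1, 13.8, 20.1 and 12.2 in female KO. The summed TPM of 7 red cell markers, mostly haemoglobins, was 1599 to 3302 in male WT, 3194 to 6474 in male KO, 3524 to 7608 in female WT and 3099.7 to 8164 in female KO. The 5 markers that could be tested were lower in male WT than in female WT, and higher in male KO than in male WT, at an unadjusted p under 0.05. Among all genes 1.25% were lower in male WT and 17.7% were higher in male KO. The part of red cell RNA in the Bpgm values was not tested.

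Other cell types also moved with the groups. In male KO, 8 of 10 macrophage markers were higher than in WT at an unadjusted p under 0.05, against 17.7% of all genes. Their summed TPM was 119 to 173 against 47.4 to 91.8 in WT. In female KO their sum was 78.4 to 114 against 56.0 to 122 in WT. The 5 endothelial markers were higher in female KO at an unadjusted p under 0.05, against 11.6% of all genes. Their sums were 177 to 342 against 118 to 157 in WT, and in males 183 to 211 in KO and 120 to 226 in WT. In males the means of these 5 were also higher in KO (median log2 difference 0.26). For 2 of them the unadjusted p by limma was under 0.05, against 17.7% of all genes. For the mean KO effect over both sexes, 3 of 10 macrophage and 1 of 5 endothelial markers passed the adjusted threshold. Among all genes 2.93% did, and within each sex 0 of these markers did. In the list of 7 Schwann cell and neuron genes the sum was 44.7 to 116 in female KO against 102 to 150.3 in WT, and 162 to 203 in male KO against 144 to 192 in WT. The 11 brown adipocyte markers had medians of -0.09 in males and 0.23 in females. Their part in the differences of the glucose genes was not tested.

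The genes around these pathways were counted by lists of their roles. Of 26 other transporter, glycolysis and pentose phosphate genes, 12 were tested and 0 passed the adjusted threshold in either sex. Slc2a5, the fructose transporter, had the widest differences of that list: it was at 1.26 to 19.04 TPM in male WT, 5.69 to 35.97 in male KO, 3.17 to 17.7 in female WT and 0 to 6.14 in female KO, with overlap in both sexes. Its differences were 1.84 in males (adjusted p = 0.275), -2.43 in females (adjusted p = 0.241) and 4.26 between them (SE 1.30, adjusted p = 0.218). Tigar, a phosphatase that opposes the kinase side of the bifunctional enzymes, was at 4.51, 5.37, 5.46 and 5.16 TPM in male WT and 5.66, 6.60, 6.95 and 6.28 in male KO, with no overlap. It differed by -0.17 in females (adjusted p = 0.214 in males and 0.522 in females). Prps1 and Prps2 make the activated ribose for nucleotides: Prps1 differed by 0.50 in females and Prps2 by 0.40 in males (adjusted p = 0.257 and 0.226). Gapdhs, the form of sperm, differed by -0.50 in males (adjusted p = 0.221). Before adjustment, 2 of the 12 were higher and 1 lower with p under 0.05 in males, and 1 was higher and 1 lower in females. Among all genes the shares were 17.7% higher and 1.07% lower in males, and 11.6% higher and 5.45% lower in females.

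Of 19 regulators of glucose use, 19 were tested and 0 passed the adjusted threshold in either sex. Before adjustment, 4 were higher and 1 lower with p under 0.05 in males, and 2 were higher and 3 lower in females, so that the male share of higher genes is near the 17.7% of all genes and the female near 11.6%, with 1.07 and 5.45% of all genes lower. Hif1a, the hypoxia factor that drives glycolytic genes, was at 7.58, 9.88, 9.13 and 6.60 TPM in female WT and 5.01, 7.31, 5.83 and 5.73 in female KO (log2 -0.44, SE 0.16, adjusted p = 0.245), and at 6.97, 6.84, 11.4 and 10.8 in male WT and 8.21, 13.1, 12.5 and 13.3 in male KO (log2 0.38, SE 0.21, adjusted p = 0.349). Mlxipl, which encodes the glucose-sensing factor ChREBP, differed by 0.52 in males and 0.09 in females (adjusted p = 0.336 and 0.812). Srebf1, a factor of fatty acid synthesis, differed by 0.47 and -0.46 (adjusted p = 0.259 and 0.441). Vhl and Egln3, which lower the hypoxia factors, differed by 0.48 and 0.43 in males (adjusted p = 0.173 and 0.221), and Epas1, a second hypoxia factor, by 0.31 (adjusted p = 0.232). Genes of insulin signalling and GLUT4 traffic showed a mixture in females, with Irs1 at -0.50, Lnpep at -0.49 and Tbc1d1 at 0.46 (adjusted p = 0.237, 0.231 and 0.232). Arrdc4, a relative of Txnip that also restrains glucose uptake, differed by 0.42 in females (adjusted p = 0.267), while Txnip itself was at 0.03 in males and -0.01 in females. Averaged over the sexes, Tbc1d1 came nearest to the threshold of the 19 (log2 0.39, SE 0.11, adjusted p = 0.0547). Ppargc1a, the coactivator of mitochondrial genes, differed by -0.31 in males (adjusted p = 0.247).

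Of 11 genes that handle pyruvate and lactate, 11 were tested in males and 10 in females, and 0 passed the adjusted threshold. Before adjustment, 2 were higher with p under 0.05 in males, near the 17.7% of all genes, and 5 were lower in females, against 5.45%. Their median difference was 0.32 in males, -0.36 in females and 0.69 between the sexes. Pdk1, the kinase that switches pyruvate dehydrogenase off, was at 26.5, 23.96, 22.3 and 25.2 TPM in female WT and 7.97, 19.6, 16.3 and 8.24 in female KO, with no overlap (log2 -0.99, SE 0.28, adjusted p = 0.231). The low values, 7.97 and 8.24 TPM, were those of female KO 1 and KO 4, the libraries with high endothelial markers. The female differences of this list were not examined without these 2 libraries. Pdha1 and Pdhb, subunits of the dehydrogenase itself, differed by -0.65 and -0.56 in females (adjusted p = 0.269 and 0.238) and by 0.43 and 0.38 in males. Mpc1, a subunit of the mitochondrial pyruvate carrier, and Slc16a1, a transporter of lactate and pyruvate, differed by -0.41 and -0.58 in females (adjusted p = 0.283 and 0.271). Pdk2, another kinase of the dehydrogenase, differed by 0.28 in males (adjusted p = 0.232). Ldha, which makes lactate, differed by 0.35 in males and -0.30 in females, while Ldhb, the heart form, differed by -0.29 and 0.58 (adjusted p = 0.325 for the difference between the sexes).

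The library names carry a prefix whose meaning the labels do not give, and it is spread unevenly over the groups. Within prefix 9, which holds 2 male WT and 3 male KO libraries, the median difference of the 29 genes was 0.37 with 26 positive, against 0.14 for all genes, and Hk1 differed by 0.68 and Pfkfb2 by -0.51. In females, prefix 8b holds 3 WT libraries and 1 KO library, female KO 3, which has high Acta1. It gave a median of -0.12 with 12 positive, against 0.03 for all genes. Prefix 10 holds 1 WT library and 1 KO library, female KO 1, which has high endothelial markers. It gave a median of -0.52 with 6 positive, against 0.00 for all genes. Pfkfb2 differed by -0.82 and -0.69 and Hk1 by -0.57 and -0.10 within those prefixes. These within-prefix values have too few libraries for a test.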

How the data were processed

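RNA-seq of BAT was made from polyA RNA with a stranded TruSeq kit. Per the labels, the authors quantified transcripts with kallisto 0.46.2 (the submitters' processing notes name the build GRCm39), and the deposited values are transcript abundances in TPM without read counts. Depth per library is therefore unknown, and the count test the study describes was not run.

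Of 137438 transcript identifiers, 135051 matched GENCODE mouse release M21 and were summed per gene symbol. The 2387 unmatched identifiers held 0.333 to 17.7% of the TPM (0.333 to 0.48% without female WT 4) and stayed out of gene values. Genes with a mean of at least 1 TPM were compared on log2(TPM + 0.5) with limma 3.58.1 (trended eBayes, R 4.3.3), within each sex, between the sexes' KO effects and for their mean, with Benjamini-Hochberg adjustment over all genes and a threshold of 0.05. Fold changes on this scale understate low genes. Shares and single low genes were compared with exact two-sided permutation tests over 70 assignments, whose smallest p is 0.0286. The fits were tested on simulated data first.

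Groups came from the labels. Nothing states that replicate libraries were prepared separately beyond their labels, so p-values measure the spread between these samples. The genes and lists were chosen with earlier results of these data known. Values per library are given for genes with an unadjusted p under 0.05 in any comparison, for leading isozymes and for the muscle-related Aldoa, Pgam2, Eno3 and Pfkm. Alternatives covered pseudocounts of 1 and 0.1, no TPM minimum or 5, scaling, trend, replicate number, library prefix, muscle score and leaving out libraries.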

Additional observations from a re-analysis of the deposited data

Results flagged for a closer look

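Slc2a1 in female WT 1 was at 2.16 TPM, apart from the other 3 female WT libraries at 1.66 to 1.73 TPM by Dixon's criterion for groups of 4. It was the only such value among 116 groups tested, where chance alone gives about 5.8. The KO effect of Hk1 was 1.14 higher in males than in females on the log2 scale, since the 4 KO libraries lay above WT in males and below WT in females. The limma test of that difference gave an adjusted p of 0.216.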

How the results depend on the processing

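The number of glucose genes past the adjusted threshold was 0 in males and became 1 (Hk1) when the 16 libraries were fitted together. For the difference between the sexes it ranged from 0 to 1 when each library was left out in turn, with 1 (Hk1) without male KO 1. For the mean KO effect it was 1 (Pfkfb2) and became 0 with a TPM minimum of 5, which removes Pfkfb2, 0 with the library prefix as a covariate, and 0 without the 6 libraries with Acta1 above 200 TPM or without the 2 with endothelial markers above 250 TPM, both chosen after seeing the data. The cause was not tested for the last 3. Pfkfb2 stayed past the threshold in 16 of 16 fits that left out a library (log2 -0.67 to -0.57, adjusted p = 0.00528 to 0.0353 by limma) and in 9 of the 12 other fits that tested it. No value past the adjusted threshold reversed, where at most 1 glucose gene passed it. Among values not past it, the sign changed in 17 in males (605 values compared) and 32 in females (633). It changed in 32 for the difference between the sexes (836), 81 for the mean effect (836) and 55 for WT males against females (575). The median of the glucose genes ranged from 0.30 to 0.50 in males, -0.33 to -0.08 in females, 0.33 to 0.64 for the difference between the sexes and -0.05 to 0.18 for the mean effect over the alternatives.

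Replicate numbers did not pair the libraries: the deviations of same-numbered libraries correlated at 0.19, -0.08, 0.04 and 0.35 in males and 0.15, -0.12, -0.08 and 0.06 in females. With the replicate block the number of glucose genes past the threshold was 0 in males, 0 in females, 0 for the difference between the sexes, 1 for the mean effect and 0 for WT males against females. Over all genes the calls of the mean effect with a higher KO level went from 315 to 40. The library prefix could not be fitted for WT males against females.

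Depth is unknown, so the counting error of the genes near 1 to 5 TPM, Pfkfb2 and Slc2a1 among them, cannot be given.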
